A study of Mus musculus with 66 samples.

Results

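The 9 genes described here, Ttr, Folr1, Kl, Aqp1, Prlr, Cldn2, Slc4a5, Tmem72 and Otx2, are markers of the epithelium of the choroid plexus. They were found by symbol in the expression tables of a mouse hippocampus study, 9 of 55421 genes, and all 9 passed the filter on low counts in both cohorts. The study sequenced poly(A) RNA of the hippocampus of C57BL/6 mice in 66 libraries. Mice had received brain extract from Alzheimer's disease cases (AD) or a control extract (Ctrl), and the series' design text describes them as with and without tauopathy. There were 2 cohorts, labelled 3 and 12 months old, each collected 1, 3 and 5 months post injection (mpi). In the 3-month cohort, Ctrl had 5 libraries at each time and AD had 6, 5 and 3 at the successive times. In the 12-month cohort, Ctrl had 5, 6 and 7 libraries at these times and AD had 6, 6 and 7. No group was uninjected. Whole reads recovered from the tables totalled 42462638 to 65907005 per library. It is not stated in the labels whether the age is that at injection or at collection, whether each library is a separate animal, or how the hippocampus was dissected. The p-values therefore measure the spread between these libraries, which may be technical.

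The choroid plexus is a frond of cuboidal epithelium over a vascular stroma that hangs in the brain ventricles and secretes cerebrospinal fluid. A sheet of it lies in the lateral ventricle along the fimbria, next to the hippocampus. Its epithelium makes the carrier proteins, transporters and channels described here, while neurons and glia of the hippocampus make little of most of them. In bulk RNA, fewer epithelial cells and less RNA per cell cannot be told apart. How much choroid plexus entered each sample was not measured, and its part in the results was not tested.

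Of the 9 genes, 7 had an upstream window in the RefSeq promoter table for build GRCm38.p6, with 12 windows in all. Ttr and Folr1 were not in it. The genes varied together across libraries, as described further on, so 3 of these windows are shown, each the 250 bases before a RefSeq start, on the gene's strand, and free of annotated exons. Capitals mark the letters TATAAA. Cldn2 is shown because it holds that motif 35 bases before the start, and Kl and Aqp1 because their windows hold neither TATAAA nor TAATCN. The Cldn2 window is at chrX:139800558-139800807, Kl at chr5:150952357-150952606 and Aqp1 at chr6:55336049-55336298, all on the plus strand.
Cldn2: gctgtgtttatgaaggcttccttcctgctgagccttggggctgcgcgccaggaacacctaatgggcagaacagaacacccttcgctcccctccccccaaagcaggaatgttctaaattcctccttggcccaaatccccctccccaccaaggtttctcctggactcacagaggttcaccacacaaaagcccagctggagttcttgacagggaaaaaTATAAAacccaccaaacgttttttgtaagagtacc
Kl: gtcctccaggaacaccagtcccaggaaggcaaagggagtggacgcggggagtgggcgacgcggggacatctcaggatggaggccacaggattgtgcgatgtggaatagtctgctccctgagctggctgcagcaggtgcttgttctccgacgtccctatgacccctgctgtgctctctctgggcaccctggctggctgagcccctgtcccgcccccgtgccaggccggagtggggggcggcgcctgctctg
Aqp1: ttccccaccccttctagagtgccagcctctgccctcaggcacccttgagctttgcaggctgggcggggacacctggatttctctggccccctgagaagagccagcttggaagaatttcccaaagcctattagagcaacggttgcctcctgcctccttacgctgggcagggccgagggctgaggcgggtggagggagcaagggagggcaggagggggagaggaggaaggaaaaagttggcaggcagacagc

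TATAAA, searched on both strands, was present in the windows of Cldn2, Otx2 and Slc4a5, 3 of 7 genes, against 14.3% of 27025 genes in the table. TAATCC, the core site of OTX homeodomain proteins, was present only for Otx2 among the 7, against 7.21% of all genes. TAATCN, which includes TAATCC, was present for Otx2 and Tmem72, against 22.4% of all genes. Some genes had more than 1 window. By window, TATAAA was in 3 of 12, against 12.4% of all windows, TAATCC in 1, against 6.25%, and TAATCN in 2, against 19.8%. The TATAAA of Slc4a5, the TAATCN matches of Tmem72 and the TAATCC of Otx2 lay at or past the start of an annotated exon. A match of these letters is a description of the windows and not a site.

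Levels are the deposited signal, RPM (a gene's reads relative to the library total) after a further scaling of each library within its cohort's own table, so levels set side by side across cohorts come from tables scaled separately. Ttr, which encodes transthyretin, the carrier of thyroxine and of retinol-binding protein in cerebrospinal fluid, ranged from 25.4 in the 3-month, 5 mpi AD replicate 1 to 9328 in the 12-month, 3 mpi AD replicate 3, with a median of 2337. The highest library was 367-fold above the lowest. It was at or above 1000 in 43 of 66 libraries, 23 of 29 in the 3-month cohort and 20 of 37 in the 12-month cohort.

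At 1 mpi in the 3-month cohort, Ttr was 4698, 5414, 2107, 2356 and 4569 in the 5 Ctrl libraries. The 6 AD libraries had a lowest, median and highest value of 112, 4702 and 7214. The lowest, AD replicate 3, stood far below the other AD libraries, whose values overlapped those of Ctrl. At 3 mpi, Ttr was 5721, 3335, 5248, 6418 and 7100.3 in Ctrl and 5446, 6764, 5323, 6536 and 5144 in AD. All 10 libraries of that time were high and the extracts overlapped. At 5 mpi, Ttr was 1338, 3968, 3077, 48.4 and 353 in Ctrl and 25.4, 132 and 709 in the 3 AD libraries. The 3 AD libraries were all below the lowest library of 3 mpi, while Ctrl spanned both low and high values.

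In the 12-month cohort, Ttr at 1 mpi was 339, 1054, 4066, 307 and 2318 in Ctrl, and 1069, 4080.5 and 7451 as lowest, median and highest in AD. At 3 mpi these 3 values were 165, 234 and 5030.1 in Ctrl and 162, 427 and 9328 in AD. At 5 mpi they were 75.5, 365 and 4306 in Ctrl and 133, 1841 and 6543 in AD. Low and high libraries stood side by side in each of these 6 groups except 1 mpi AD, where all 6 were above 1000. Ordered by median over the 12 groups, Ttr was lowest in 3-month, 5 mpi AD and highest in 3-month, 3 mpi Ctrl. In that order the ranges of all 11 pairs of neighbouring groups overlapped, for Ttr and for each of the other 8 genes. Such an order puts groups of like median side by side, and the share over all genes was not computed.

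**Figure D1:**
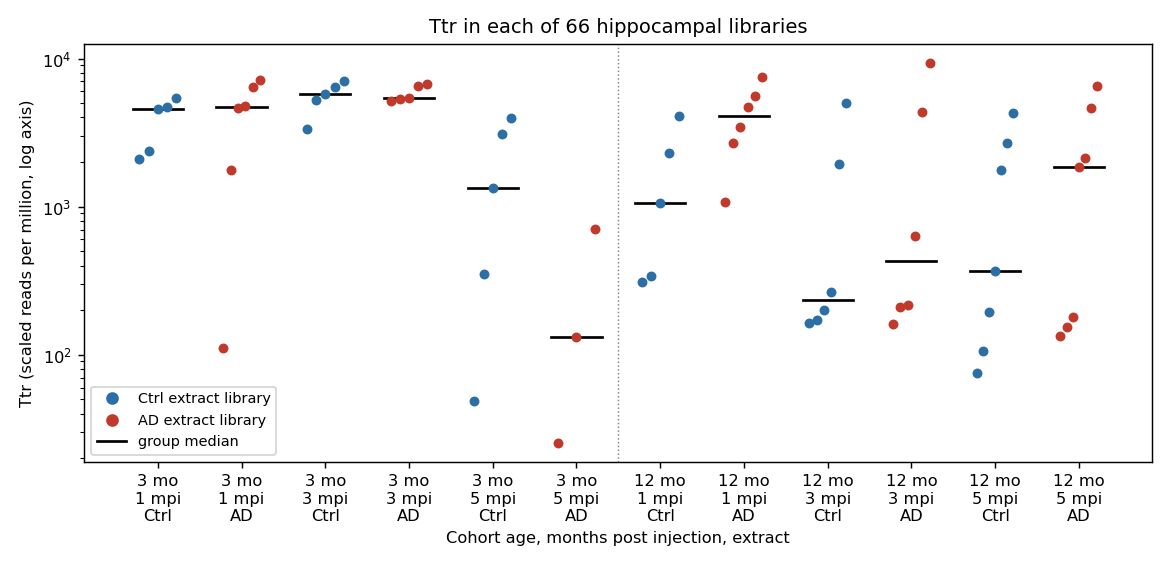
Ttr in each library on a log axis (scaled RPM), by cohort, time and extract, with 1 point per library and a bar at the group median. All 10 libraries of the 3-month cohort at 3 mpi lie between 3335 and 7100.3, while 3-month, 5 mpi AD spans 25.4 to 709 and 12-month, 3 mpi AD spans 162 to 9328.

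The other secreted or receptor proteins followed the same libraries. Folr1, the folate receptor that carries folate across the epithelium, had medians in the 3-month cohort of 30.6, 44.5 and 10.4 at 1, 3 and 5 mpi after control extract and 32.5, 42.6 and 1.34 after AD extract. Its medians in the 12-month cohort were 8.15, 2.36 and 3.70 at 1, 3 and 5 mpi after control extract and 32.4, 3.96 and 12.6 after AD extract. Folr1 was 0.901, 1.34 and 5.31 in the 3 AD libraries of the 3-month cohort at 5 mpi, against 37.4, 44.6, 48.7, 42.6 and 39.3 at 3 mpi, with no overlap.

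Kl encodes klotho, the co-receptor for FGF23, and is also made by neurons. Medians of Kl in the 3-month cohort were 173, 209 and 79.5 at 1, 3 and 5 mpi after control extract and 182, 216 and 28.9 after AD extract. Medians of Kl in the 12-month cohort were 57.4, 35.4 and 38.0 at 1, 3 and 5 mpi after control extract and 173, 38.3 and 78.0 after AD extract. Kl did not go below 25.6 in any library, and its highest value, 333, was 13-fold above that, the smallest such range among the 9 genes.

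Prlr encodes the prolactin receptor. Prlr medians in the 3-month cohort were 95.8, 91.2 and 38.3 at 1, 3 and 5 mpi after control extract and 115, 100.3 and 9.65 after AD extract. Prlr medians in the 12-month cohort were 34.4, 13 and 11.8 at 1, 3 and 5 mpi after control extract and 112, 13.2 and 28.0 after AD extract. Prlr stood apart in 2 libraries. It was 365 in 3-month, 3 mpi AD replicate 3, where the other 4 libraries of the group were 71.8 to 103. It was 35.7 in 3-month, 1 mpi AD replicate 3, where Ttr was 112, above all 16 other libraries whose Ttr was at or below 267, which had Prlr between 5.63 and 14.3.

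Among the water channel, ion transporter and junction genes, Aqp1, a water channel of the apical membrane, had medians of 28.1, 34.6 and 8.90 at 1, 3 and 5 mpi after control extract and 28.6, 34.4 and 0.853 after AD extract in the 3-month cohort. Its 12-month medians were 7.45, 1.59 and 2.24 at 1, 3 and 5 mpi after control extract and 27.9, 3.29 and 7.73 after AD extract. Aqp1 was 0.428, 0.853 and 4.65 in the 3-month AD libraries at 5 mpi and 29.0, 40.7, 39.4, 34.1 and 34.4 at 3 mpi, again with no overlap.

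Slc4a5, a sodium bicarbonate cotransporter, had 3-month medians of 30.0, 41.7 and 11.3 at 1, 3 and 5 mpi after control extract and 34.1, 42.3 and 1.74 after AD extract. Slc4a5 had 12-month medians of 8.02, 2.20 and 3.53 at 1, 3 and 5 mpi after control extract and 32.5, 2.90 and 11.2 after AD extract. Cldn2, the pore-forming claudin of leaky epithelia, had 3-month medians of 27.7, 39.4 and 10.5 at 1, 3 and 5 mpi after control extract and 30.4, 40.1 and 2.02 after AD extract. Cldn2 had 12-month medians of 7.82, 3.16 and 3.27 at 1, 3 and 5 mpi after control extract and 28.6, 3.55 and 10.6 after AD extract. For both genes the 3-month, 5 mpi AD group had the lowest median and the 3-month, 3 mpi AD group the highest of the 12 groups.

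Tmem72, a membrane protein with little known function, had 3-month medians of 48.7, 66.9 and 17.7 at 1, 3 and 5 mpi after control extract and 54.4, 64.4 and 1.53 after AD extract. Tmem72 had 12-month medians of 10.9, 3.60 and 2.73 at 1, 3 and 5 mpi after control extract and 50.6, 4.92 and 16.8 after AD extract. Its span was the widest of the 9, 452-fold, from 0.27 to 122. Otx2 encodes the homeodomain transcription factor that specifies and maintains the choroid plexus, and is also made in parts of the thalamus and midbrain. Otx2 had 3-month medians of 16.2, 21.9 and 7.44 at 1, 3 and 5 mpi after control extract and 19.6, 26.0 and 4.15 after AD extract. Otx2 had 12-month medians of 6.39, 4.16 and 4.43 at 1, 3 and 5 mpi after control extract and 18.8, 5.04 and 5.90 after AD extract.

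Otx2 was 6.23 in 3-month, 5 mpi Ctrl replicate 4, although Ttr was 48.4 there. That library held the second highest levels of the thalamus-rich genes Tcf7l2 (49.8, against a median of 6.37 over all libraries), Prkcd (121, against 27.6) and Slc17a6 (85.2, against 31.3). The summed level of the 7 thalamus and habenula genes was highest in 3-month, 1 mpi AD, at 408, and in 3-month, 5 mpi Ctrl, at 347, and in the other 10 groups it stayed at or below 171. The library with the highest Tcf7l2, 3-month, 1 mpi AD replicate 1, had Otx2 at 21.2 and Ttr at 4615. The part of thalamic tissue in the Otx2 values was not tested. Otx2 shares 154 exonic bases with the antisense transcript Otx2os1 and Prlr shares exonic bases with Gm21973. Use of strand in counting is not given in the sources used here, so reads of these pairs cannot be told apart.

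**Figure D2:**
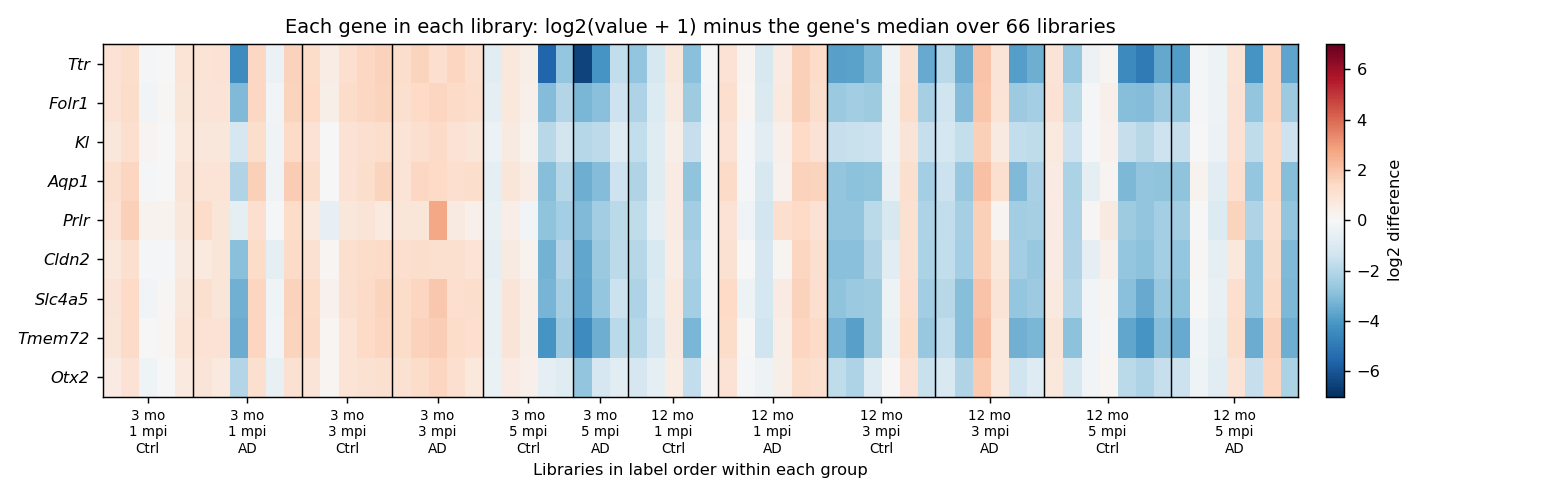
All 9 genes (rows) in all 66 libraries (columns, in label order within each group), coloured by log2(value + 1) minus the gene's median over the libraries. Blue columns run through all 9 rows, as in the 3 libraries of 3-month, 5 mpi AD. Prlr in 3-month, 3 mpi AD replicate 3 is the darkest cell of its column.

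All 9 genes lie on GRCm38 at these GENCODE vM21 positions and are protein coding. Ttr is at chr18:20665280-20674321, plus strand. Folr1 is at chr7:101858331-101870788, minus strand. Kl is at chr5:150952607-150993817, plus strand. Aqp1 is at chr6:55336432-55348555, plus strand. Prlr is at chr15:10177238-10349180, plus strand. Cldn2 is at chrX:139800828-139811386, plus strand. Slc4a5 is at chr6:83219828-83304945, plus strand. Tmem72 is at chr6:116679063-116716913, minus strand. Otx2 is at chr14:48657677-48673819, minus strand. Per kilobase of merged exon, the median level over all libraries was 1971 for Ttr, against 11.3 for Kl, 7.16 for Folr1, 5.43 for Aqp1, 5.28 for Cldn2, 3.63 for Prlr, 2.89 for Slc4a5, 2.55 for Otx2 and 1.53 for Tmem72. Ttr was thus far above the other 8 on this scale.

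Within groups the 9 genes varied together. Deviations of log2(value + 1) from the group mean over 66 libraries gave Pearson's r of 0.907 to 0.994 for the 36 pairs, with a median of 0.975, and Spearman's rho of 0.918 to 0.993. For every pair the raw and the Benjamini-Hochberg adjusted permutation p over the 36 pairs was 1e-05 for both measures, the smallest that 100000 resamples can give. Without the 2 libraries farthest from the median of the first gene, r was 0.900 to 0.992. The median r was 0.960 in the 3-month cohort alone and 0.980 in the 12-month cohort alone. Prlr and Otx2 followed the others least closely, with median r of 0.943 and 0.945, and Folr1 and Tmem72 most closely, with 0.983 each. Every pair of values shares its library, so depth and tissue content are common to both.

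The genes did not change by equal factors. Against log2 Ttr over the 66 libraries, the slope of the log2 level was 1.03 for Tmem72, 0.92 for Slc4a5, 0.90 for Aqp1, 0.86 for Folr1 and 0.82 for Cldn2. It was 0.65 for Prlr, 0.57 for Otx2 and 0.50 for Kl. A slope under 1 means that the gene fell less than Ttr from high to low libraries, as with the floor of Kl. The largest distances above these lines were 2.17 log2 units for Otx2 in 3-month, 5 mpi Ctrl replicate 4 and 2.16 for Prlr in 3-month, 1 mpi AD replicate 3. These slopes are descriptions over libraries of all groups.

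**Figure D3:**
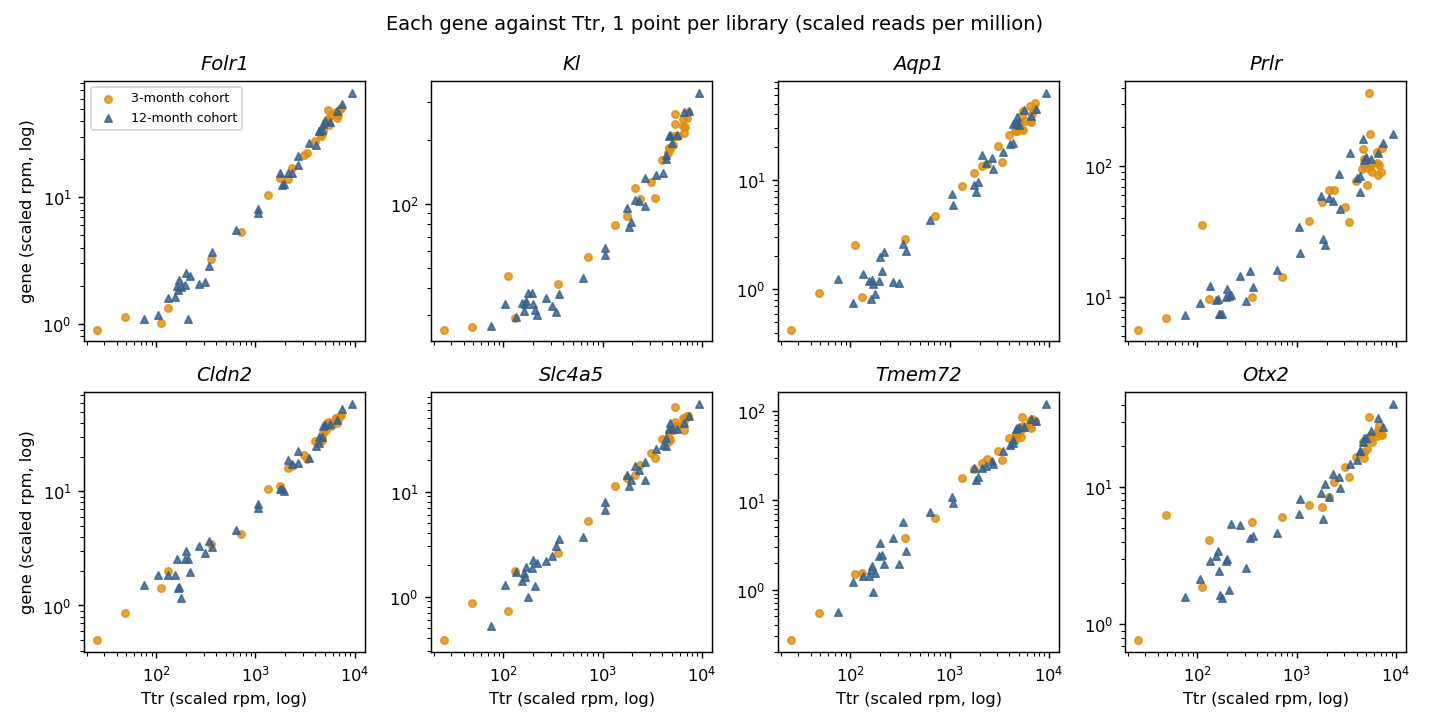
Each of 8 genes against Ttr, both on log axes in scaled RPM, with 1 point per library and the cohorts by colour and marker. The points of both cohorts rise with Ttr for each gene, and no line was fitted per cohort. Kl levels off near 26 to 46 where Ttr is under 500, and single libraries stand above the rest for Prlr and Otx2.

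The 9 genes were set beside other markers, in lists chosen with earlier results of these data known. The values are thus a description and no independent check of the set's name. Of 17 other genes of choroid plexus epithelium, 16 had r of at least 0.9 with the mean deviation of the 9 genes, among 92 of 19601 non-member genes tested in both cohorts. The exception was Slc13a4, a sulfate transporter, at 0.696. The 5 most alike genes overall were Mfrp at 0.994, F5 at 0.993, Enpp2 at 0.992, Kcne2 at 0.990 and Ecrg4 at 0.987. The 22 transport partners and related genes of the 9 had a median r of 0.678, from Aqp4, the astrocyte water channel, at -0.23 to the anion exchanger Slc4a2 at 0.952. Genes of ciliated ependymal cells, which line the ventricles, had a median of 0.614. Fibroblast genes had a median of 0.185, myelin genes 0.188, thalamus and habenula genes -0.04 and hippocampal neuron genes -0.17. The summed level of the 8 hippocampal neuron genes stayed between 810.2 and 1189 in all libraries.

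**Figure D4:**
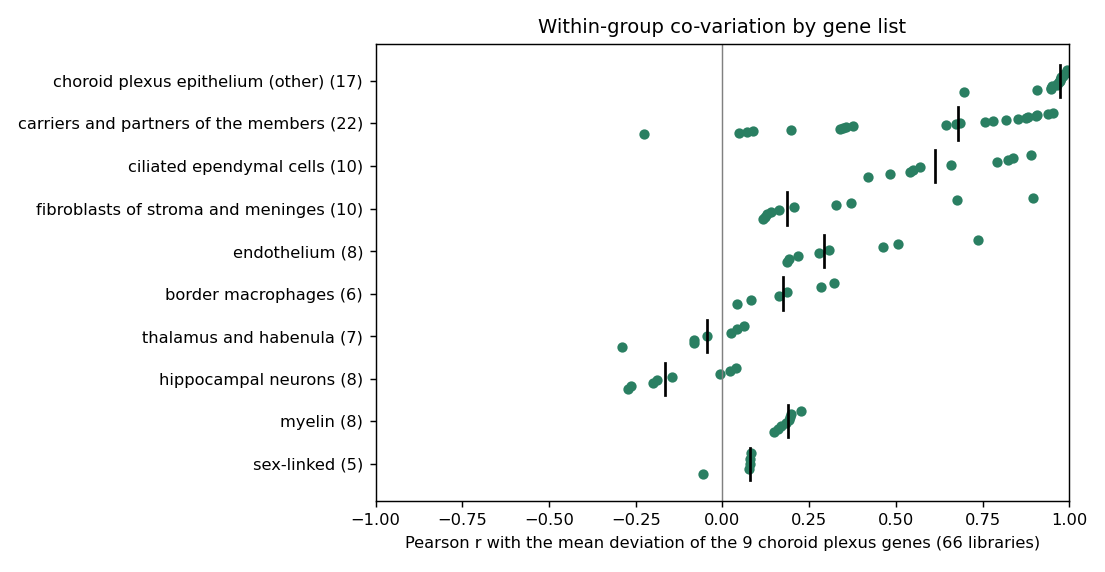
Pearson's r of single genes with the mean within-group deviation of the 9 choroid plexus genes over 66 libraries, 1 point per gene and a bar at the median of each list, with the number of genes in brackets. Other choroid plexus genes lie near 1 with a median of 0.972, ependymal genes between 0.419 and 0.889, and hippocampal neuron genes around -0.17.

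The first question of the design is whether the AD extract changed expression. None of the 9 genes was called at an adjusted p under 0.05 (limma, Benjamini-Hochberg over all genes tested) in any of the 8 comparisons of AD with Ctrl within a cohort, nor by edgeR or DESeq2 on the recovered reads. In the 12-month cohort over the 3 times, all 9 estimates were above 0, from 0.62 for Otx2 to 1.06 for Ttr in log2, with adjusted p of 0.362 to 0.460. In the 3-month cohort all 9 were below 0, from -0.99 for Ttr to -0.31 for Prlr, with adjusted p of 1.00. No unadjusted p of the 9 was under 0.05 in either. The share of all genes called was 0.00996% in the former and 0% in the latter. The 95% interval for Ttr ran from -0.24 to 2.36 in the 12-month cohort and from -2.22 to 0.24 in the 3-month cohort. Both intervals include 0 and span more than 2 log2 units. In the 12-month cohort, Ttr was above the mean of its time's Ctrl libraries on the log2 scale in 13 of 19 AD libraries. In the 3-month cohort it was above that mean in 7 of 14, although the estimate was below 0.

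By time, the estimates farthest from 0 were at 1 mpi in the 12-month cohort and at 5 mpi in the 3-month cohort. In the former, with 0.00498% of all genes called, they ran from 1.14 for Otx2 to 1.81 for Ttr, with adjusted p of 0.420 to 0.548. All 6 AD libraries were above the Ctrl mean for Ttr, Kl and Otx2, and 5 of 6 were for each of the other genes. In the latter, with 0% of all genes called, they ran from -2.52 for Ttr to -1.02 for Kl, with adjusted p of 1.00. An unadjusted limma p was under 0.05 for 8 of the 9 genes and for 922 of 19976 genes tested. The 9 genes vary together, so these are not 8 separate results. None of the 3 AD libraries was above the Ctrl mean for any of the 9 genes there. At 1 and 3 mpi in the 3-month cohort, with 0% of all genes called in each, the 9 estimates were -0.55 to -0.11 and 0.09 to 0.57. At 3 and 5 mpi in the 12-month cohort, with 0% and 0.0548% called, they were 0.28 to 0.66 and 0.32 to 0.75. No unadjusted p was under 0.05 in these 4, nor at 1 mpi in the 12-month cohort. At 1 mpi in the 3-month cohort, all 9 estimates turned above 0 without AD replicate 3, Ttr to 0.33.

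The difference in AD effect between cohorts (12-month minus 3-month, mean of times) was above 0 for all 9 genes, from 0.95 for Kl to 2.05 for Ttr. None was called, with adjusted p of 0.866 to 0.868, and 0% of all genes were called. An unadjusted limma p was under 0.05 for 7 of the 9 and for 1175 of 21297 genes tested. The interval for Ttr was 0.18 to 3.93.

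Time after injection was compared within each extract. Of the 12 such comparisons, those other than Ctrl 5 minus 1 mpi were added after the levels had been seen. In AD libraries of the 3-month cohort, all 9 genes were lower at 5 than at 3 mpi. Ttr fell from 5843 ± 749 (SD, n = 5) to 289 ± 368 (SD, n = 3), a log2 change of -5.42 with a standard error of 1.15 (limma, adjusted p = 0.00604). Tmem72 changed by -4.64, Slc4a5 by -4.04, Aqp1 by -3.88, Folr1 by -3.83 and Cldn2 by -3.82. Prlr changed by -3.55, Otx2 by -2.72 and Kl by -2.63. Adjusted p over the 9 genes ran from 0.00185 for Prlr to 0.00604 for Ttr, and 5.23% of all genes were called, 3.74% lower. The groups did not overlap for any of the 9 genes, nor for 18.9% of all genes tested. The count was 6 of 9 without AD replicate 1 of 5 mpi, where 1.36% of all genes were called.

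Other genes of the epithelium and its neighbours fell in the same comparison. Of the 17 other choroid plexus genes, 16 were called lower, with a median of -2.44 against 0.01 for all genes tested, among them Kcnj13, a potassium channel, at -3.66, Clic6 at -3.59, Kcne2 at -3.95 and Sostdc1 at -2.99. Of the 22 transport partners, 10 were called lower, with a median of -0.44. Among them were the bicarbonate and chloride transporters Slc4a2 (-1.60) and Slc12a2 (-1.07), the carbonic anhydrases Car12 (-1.55), Car14 (-1.50) and Car2 (-0.49), the thyroid hormone transporter Slco1c1 (-1.10), and the claudins Cldn1 (-2.41) and Cldn3 (-0.82). Of 10 ependymal genes tested, 8 were called lower, with a median of -0.91, among them Foxj1, which drives the making of motile cilia, at -0.99. The summed ependymal level was 73.1 to 114 at 3 mpi and 40.0 to 49.2 at 5 mpi, and none of its markers was at 0 in all libraries of either group. Of 10 fibroblast genes, Igf2 (-1.31) and Igfbp2 (-2.03) were called lower, and all 10 estimates were below 0, with a median of -0.996. Within groups, Igf2 and Igfbp2 followed the 9 genes most closely of these 10, with r of 0.677 and 0.895. The median r of the list was 0.185, so these calls do not stand for fibroblasts as a whole. The summed fibroblast level was 257 to 405 at 3 mpi and 108 to 311 at 5 mpi. None of the 6 border macrophage genes was called, although all 6 estimates were below 0, with a median of -0.51. None of the 8 hippocampal neuron genes was called, with a median of 0.18. The part of these other cell types in the fall was not tested.

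From 1 to 5 mpi in AD libraries of the 3-month cohort, all 9 genes were also called lower, with 5.69% of all genes called, 3.7% lower. The log2 change ran from -4.16 for Ttr to -1.77 for Otx2, with adjusted p of 0.00396 to 0.0367. At 1 mpi Ttr was 111.7 in 1 of the 6 AD libraries, and of the 9 genes only Prlr did not overlap between the groups, against 7.31% of all genes tested. The count was 1 of 9 without AD replicate 1 of 5 mpi (0.926% of all genes called) and 3 without AD replicate 2 of 5 mpi (4.98%). It was 4 and 5 without AD replicates 4 and 1 of 1 mpi (3.05% and 3.64%). With only these 2 groups fitted it was 0, and 1 gene of all those tested was called (0.00501%).

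In Ctrl libraries of the 3-month cohort, the change from 1 to 5 mpi was below 0 for all 9 genes, from -2.20 for Ttr to -0.60 for Otx2. Only Prlr was called, at -1.87 with a standard error of 0.52 (limma, adjusted p = 0.0255), and 9.19% of all genes were called, 4.06% lower. Prlr was 113, 178, 65.5, 65.4 and 95.8 at 1 mpi and 38.3, 77.3, 49.2, 6.91 and 9.93 at 5 mpi, with overlap. The call was lost without Ctrl replicate 1 or 2 of 1 mpi or Ctrl replicate 4 or 5 of 5 mpi, and in edgeR's quasi-likelihood test on recovered reads, which called 8.97% of all genes. From 3 to 5 mpi in Ctrl, with 0.00501% of all genes called, the changes were -2.79 to -1.06 and none was called. Adjusted p was 0.190 to 0.456 (limma). All 9 had an unadjusted limma p under 0.05, as did 1800 of 19976 genes tested. Without AD replicate 3 of 1 mpi, which enters through the shared spread, 1 of 9 was called. How many of all genes were called without that library is not given here.

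The fall to 5 mpi was called in AD and not in Ctrl for most genes, so the difference of the changes was tested. The change from 3 to 5 mpi differed between the extracts (AD minus Ctrl) by -2.63 (Ttr) to -1.19 (Kl) log2 units, with adjusted p of 0.903, and from 1 to 5 mpi by -1.97 (Ttr) to -0.90 (Kl), with adjusted p of 0.984. None of the 9 genes was called in either by limma, edgeR or DESeq2, and 0% of all genes were by limma. An unadjusted limma p was under 0.05 for 3 of the 9 in the former and 0 in the latter, beside 1087 and 813 of 19976 genes tested. In the 8 remaining comparisons of times none of the 9 genes was called by limma, and at most 1 had an unadjusted p under 0.05. The share of all genes called there was 1.8% and 0.586% for 3 minus 1 mpi in 3-month Ctrl and AD, and in the 12-month cohort 0.0199%, 0.0249% and 0.214% for 3 minus 1, 5 minus 1 and 5 minus 3 mpi in Ctrl and 0.832%, 0.762% and 0.194% in AD.

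**Figure D5:**
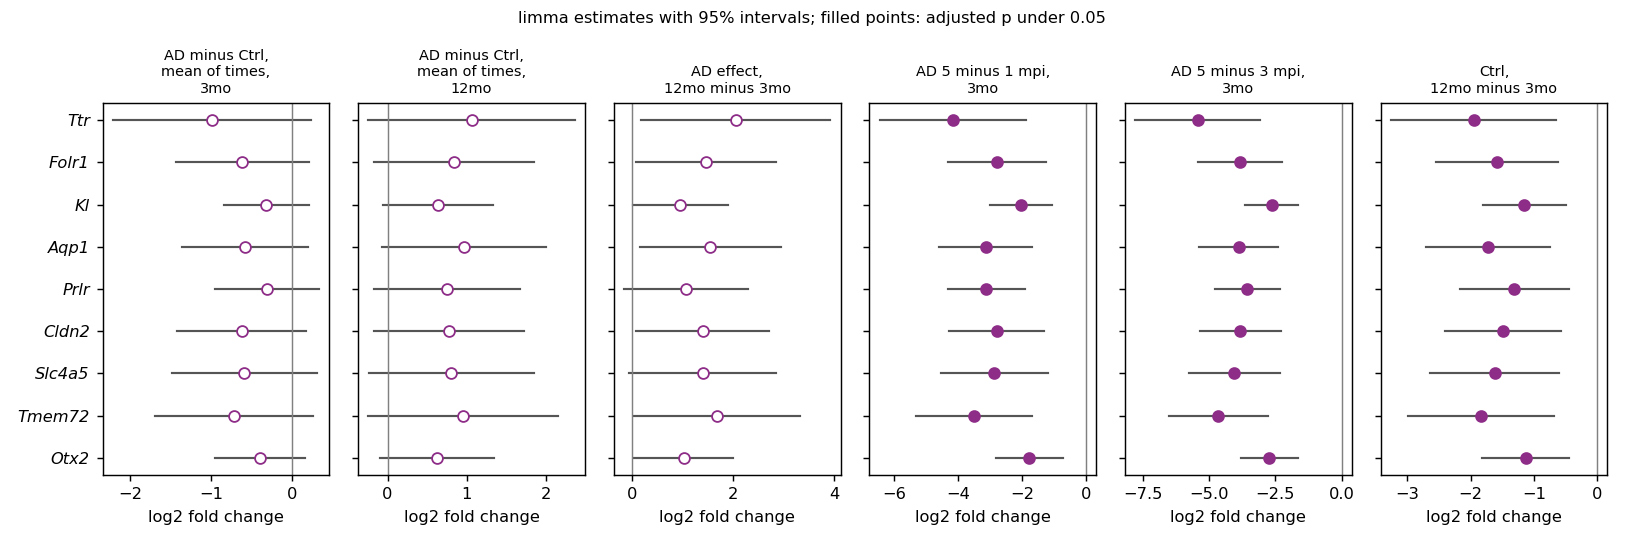
Log2 fold changes of the 9 genes with 95% intervals (limma) in 6 comparisons, filled where the adjusted p is under 0.05. No point is filled in the 3 panels on the AD effect, and all 9 are filled and below 0 in the 2 panels of time in 3-month AD libraries and in the panel of 12-month minus 3-month Ctrl libraries.

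Ctrl libraries of the 2 cohorts were compared after scaling both tables together. All 9 genes were lower in the 12-month cohort, and 20.7% of all genes were called, 10.7% lower. The lowest, median and highest values of Ttr were 48.4, 3968 and 7100.3 in 15 libraries of the 3-month cohort and 75.5, 352 and 5030.1 in 18 of the 12-month cohort, so the ranges overlapped widely. The log2 difference was -1.95 for Ttr, -1.84 for Tmem72, -1.73 for Aqp1, -1.62 for Slc4a5 and -1.58 for Folr1. It was -1.49 for Cldn2, -1.31 for Prlr, -1.15 for Kl and -1.13 for Otx2. Adjusted p ran from 0.00757 for Aqp1 to 0.0256 for Ttr (limma). In edgeR's quasi-likelihood test on recovered reads 1 of 9 was called, beside 20.4% of all genes, and in DESeq2 3 of 9, beside 21% of all genes. Cohort age and anything else that differed between the cohorts cannot be told apart.

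In the same comparison 14 of 17 other choroid plexus genes were called lower, with a median of -1.01 against -0.01 for all genes tested, among them Clic6 (-1.39), Kcnj13 (-1.31) and Mfrp (-1.73). Of the 22 transport partners, 11 were called lower, among them Slc4a2 (-0.77), Car12 (-0.62) and Cldn1 (-0.82), and 1 higher, Rbp4 (0.28), which encodes retinol-binding protein. Of 10 ependymal genes, 5 were called lower and none higher, and the summed ependymal level was 40.1 to 93.2 in 3-month and 36.9 to 90.5 in 12-month Ctrl libraries. Of 8 myelin genes, 5 were called lower, and of 10 fibroblast genes, 3 were called higher. The part of these cell types in the difference was not tested.

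The level of the other choroid plexus genes was then held constant, by adding the mean log2 level of those 17 genes to each fit. With it, 0 of 9 genes were called in AD of the 3-month cohort from 3 to 5 mpi, where 0.00501% of all genes were called, and from 1 to 5 mpi, where 2.04% were. The share of all genes thus fell too, from 5.23% and 5.69% without the covariate. Between the Ctrl libraries of the cohorts 2 of 9 were called, beside 16.9% of all genes, Kl at -0.19 (limma, adjusted p = 0.0189) and Aqp1 at -0.29 (adjusted p = 0.0344). In Ctrl from 1 to 5 mpi of the 3-month cohort 2 were called, beside 12.2% of all genes, Prlr at -1.01 (adjusted p = 0.0253) and Kl at -0.34 (adjusted p = 0.0397). The 17 genes and the 9 move together. The covariate enters as 1 straight slope per gene on the log2 scale, while Kl levels off in libraries with low Ttr. Whether the values left after it are differences beyond the level shared with the 17 genes was not tested.

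Of the 9 genes, Prlr alone was called against a score of sex-linked genes. In a model chosen after seeing the data, with the level of the other choroid plexus genes and a score of Xist minus Y-linked genes as covariates over all 66 libraries, Prlr rose by 0.031 log2 per unit of the score (SE 0.0066, limma adjusted p = 0.00453), against 2.57% of all genes called. None of the other 8 genes was called. The 2 libraries where Prlr stood apart, 3 mpi AD replicate 3 and 1 mpi AD replicate 3 of the 3-month cohort, had high Xist. It was 698 and 599 there, against a median of 3.89 over all libraries. The model was not refitted without them. The labels used here do not give the sex of the mice. The mix of high and low scores differed between groups. At 1 mpi of the 3-month cohort the score was above 0 only in Ctrl replicate 2 and AD replicates 1, 3 and 5. With the score as the only covariate, 8 of 9 genes were called between the Ctrl libraries of the cohorts, beside 3868 of all genes.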

How the data were processed

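The deposited tables hold a signal, found from the values to be RPM over a further factor of each library (0.957 to 1.04). Per the submitters' processing notes, the authors used STAR, Picard and edgeR with GRCm38. Which versions, gene annotation, strand setting and counting rule were used is not given in the sources used here. Within a tolerance of 0.01 reads, 100% of values came out as whole reads. Genes were filtered with edgeR 4.0.16 (filterByExpr), leaving 19976, 20084 and 21297 genes in the 3-month, 12-month and joint fits. log2(signal + 1) was fitted with limma 3.58.1 (trend) in R 4.3.3, with 1 spread over a cohort's groups and Benjamini-Hochberg adjustment over all genes tested. A change on this scale understates that of low genes. Joint fits scaled both tables together. Count tests on the recovered reads (edgeR quasi-likelihood, DESeq2 1.42.0) called 0 to 13 and 0 to 159 genes in the 9 comparisons of the AD effect. Other alternatives were the scaling, filter, pseudocount, replicate block, covariates and left-out libraries. The model was run on simulated counts with the same dispersion for all genes. That run does not show how the fit behaves for genes with the wide spread of these 9. All 9 genes are named in each comparison, with the 5 most alike genes and genes of fixed lists. The members and lists were chosen with earlier results of these data known. No 2 libraries of a group agreed within sampling noise (chi-square per degree of freedom at least 5.44).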

Additional observations from a re-analysis of the deposited data

Results flagged for a closer look

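Dixon's test was run on 99 sets of 1 gene in 1 group of 4 to 10 libraries. In 8 sets the gap of a library to the nearest other exceeded the 95% critical value. Chance gives about 1 in 20 for separate sets. The genes vary together within groups, so the 99 sets are not separate and the 8 cannot be weighed against that rate. All 8 came from the libraries named next, most of the 8 from 3-month, 3 mpi Ctrl replicate 2. In 3-month, 1 mpi AD replicate 3 the low genes were Ttr at 111.7 and Tmem72 at 1.49. In 3-month, 3 mpi Ctrl replicate 2 they were Folr1 at 22.2, Kl at 106.7, Prlr at 37.3, Cldn2 at 19.1 and Otx2 at 12.0. In 3-month, 3 mpi AD replicate 3, Prlr was high at 364.7.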

How the results depend on the processing

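Counts of the 9 genes called depended on the processing in the comparisons that had calls, and the cause was not tested. Brackets give the number of all genes called in the same fit. For left-out libraries it is given only where a share is stated above. For 3-month Ctrl from 1 to 5 mpi the count of 1 was 0 with no filter (1236), in edgeR (1792) and with only the groups compared (895). It was 2 with the covariate for the 17 other choroid plexus genes (2446), and 0 to 3 leaving out 1 library. For 3-month AD from 1 to 5 mpi the count of 9 was 5 with no filter (756) and 0 with the covariate (407). It was 0 with only the groups compared (1), and 1 to 9 leaving out 1 library. For 3-month AD from 3 to 5 mpi it was 0 with the covariate (1) and 6 to 9 leaving out 1 library. For 3-month Ctrl from 3 to 5 mpi the count of 0 was 0 to 1. For Ctrl between cohorts the count of 9 was 1 in edgeR (4337), 3 in DESeq2 (4480) and 2 with the covariate (3594). It was 8 with no filter (3707) or with a covariate for sex-linked genes (3868), and 8 to 9 leaving out 1 library. In all comparisons of AD with Ctrl the count was 0 under every alternative run.

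Same-numbered AD and Ctrl libraries of a time point did not deviate together as a rule. Of 31 pairs with the same replicate number, 12 had a correlation over 0.1, with a median of 0.012 and a range of -0.39 to 0.635. Libraries with different numbers were not compared, so these values do not settle whether the numbers pair the libraries. With the replicate number as a block, the count for 3-month AD from 1 to 5 mpi was 5, beside 1287 of all genes. In 3-month AD minus Ctrl over the times the count was 0, beside 0 of all genes, with Ttr at -1.16.

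With the covariate, the log2 estimates of the 9 genes changed sign for 3 and 5 of 9 at 1 and 3 mpi in AD minus Ctrl of the 3-month cohort (0.019 to 0.033, and -0.29 to -0.022), for 6 and 8 of 9 at 3 and 5 mpi of the 12-month cohort (-0.19 to -0.052, and -0.16 to -0.018), and for 3 of 9 in 12-month Ctrl from 1 to 5 mpi (0.013 to 0.24). Ttr was among them, at the values given next, except at 1 mpi and in Ctrl. In the other comparisons of the design and in 3-month AD from 1 and 3 to 5 mpi, each gene that changed sign is listed. The estimate was 0.014 for Kl and 0.049 for Prlr in AD minus Ctrl over the times of the 3-month cohort. The fit gave -0.29 for Ttr in AD minus Ctrl at 3 mpi of the 3-month cohort. The covariate gave 0.018 for Folr1, 0.0062 for Kl and 0.10 for Slc4a5 in AD minus Ctrl at 5 mpi of the 3-month cohort. The estimate was 0.22 for Otx2 in 3-month Ctrl from 1 to 5 mpi. The fit gave 0.026 for Slc4a5 in 3-month AD from 1 to 5 mpi. The covariate gave 0.13 for Slc4a5 in 3-month AD from 3 to 5 mpi. The estimate was -0.12 for Ttr, -0.080 for Folr1, -0.078 for Prlr, -0.084 for Cldn2, -0.15 for Slc4a5, -0.13 for Tmem72 and -0.024 for Otx2 in AD minus Ctrl over the times of the 12-month cohort. The fit gave -0.26 for Ttr, -0.022 for Aqp1, -0.073 for Prlr, -0.093 for Cldn2, -0.17 for Slc4a5, -0.21 for Tmem72 and -0.0013 for Otx2 in AD minus Ctrl at 1 mpi of the 12-month cohort. The covariate gave -0.079 for Ttr in AD minus Ctrl at 3 mpi of the 12-month cohort. The estimate was -0.018 for Ttr in AD minus Ctrl at 5 mpi of the 12-month cohort. The fit gave -0.023 for Kl, -0.16 for Prlr, -0.14 for Slc4a5 and -0.042 for Tmem72 in the AD effect between cohorts. In AD minus Ctrl at 1 mpi of the 3-month cohort 8 of 9 genes turned above 0 in edgeR and in DESeq2. Kl and Aqp1 also did so with a covariate for sex-linked genes, at 0.016 to 0.025. Ttr was 0.10 there in edgeR and 0.11 in DESeq2, and ran from -0.87 to 0.33 leaving out 1 library. At 3 mpi of the 3-month cohort Ttr ran from -0.067 (without Ctrl replicate 2) to 0.21, and 5 of 9 genes turned below 0 without that library. At 3 mpi of the 12-month cohort Ttr ran from -0.11 (without AD replicate 3) to 1.29, and 8 of 9 turned below 0 without that library. The comparisons of times beyond Ctrl from 1 to 5 mpi were chosen after seeing the data.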
